A study of Mus musculus with 9 samples.

Results

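Peaks of the limb homeodomain proteins Hoxa13 and Hoxa11 were examined at the mouse genes Sox9 and Gdf5, which act in cartilage and joints. A peak was taken when its start lay in 1 of 2 windows of the mm9 build: chromosome 11 from 111500000 to 112800000, which holds Sox9 near 112.64 Mb and the gene-poor stretch upstream of it, or chromosome 2 from 155550000 to 156000000, which holds Gdf5. The rule took 176 of the 243649 peaks in the 5 lists, 139 in the Sox9 window and 37 in the Gdf5 window. It used position alone, and no expression was measured, so the loci are named by position and not by activity.

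All tissue came from wild-type embryos of the outbred ICR strain. For Hoxa13 there was a single library at each of 3 embryonic stages. The E11.0 library came from 11 pooled pairs of autopods, the future hands and feet, the E11.5 library from the whole limb buds of a litter, and the E12.5 library from limb buds. Hoxa11 was mapped in E11.5 limb buds only, in replicates 1 and 2, and both proteins were pulled down with home-made antibodies. Of 9 libraries, 4 are input DNA and were not analysed here. The E12.5 library was made by a different protocol and the E11.0 tissue was dissected differently, so stage, tissue and protocol cannot be told apart. The input title shows that Hoxa13 at E11.5 and Hoxa11 replicate 1 had a common input.

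Sox9 encodes an HMG-box transcription factor that directs mesenchymal cells to become chondrocytes and marks the condensations that prefigure the limb skeleton. It is known for control by enhancers spread over a long upstream desert, and disruption of that desert in people is linked to skeletal and jaw malformations. Gdf5 encodes a secreted ligand of the bone morphogenetic protein family that marks the joint interzone, and its loss in the mouse gives the short digits of brachypodism. Hoxa13 is required for the autopod, and Hoxa11 acts with its paralogues in the forearm and lower leg. In the RefSeq annotation of GRCm38.p6 the genes next to Sox9 are the long noncoding genes BC006965 and Gm11681, and those next to Gdf5 are Uqcc1 and Cep250. That annotation is of another build, so peaks were not placed inside genes, and their sequences were not analysed here.

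The Sox9 window held 14 Hoxa13 peaks of the E11.0 list, 92 of the E11.5 list and 26 of the E12.5 list. The Hoxa11 lists placed 5 peaks (replicate 1) and 2 peaks (replicate 2) there. The lists differ in length, with 50890, 143460 and 44699 Hoxa13 peaks and 2953 and 1647 Hoxa11 peaks, so raw counts are not comparable between lists and each was read against its own list.

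Per Mb, the Sox9 window held 10.8 Hoxa13 peaks at E11.0, against 18.9 over the whole list, a ratio of 0.57. At E11.5 it held 70.8 against 54.1 (ratio 1.31), and at E12.5 20 against 16.6 (ratio 1.2). The window was thus poorer than its list at E11.0 and richer at both later stages. When the genome was tiled with 2019 windows of the same 1.3 Mb length, 73.1% held at least as many E11.0 peaks, 26.3% at least as many E11.5 peaks and 33.8% at least as many E12.5 peaks. None of the 3 Hoxa13 counts was rare among windows of this length. With every Hoxa13 list limited to its 44699 widest peaks, the E11.5 count fell from 92 to 37 and its ratio rose to 1.69. Hoxa11 replicate 1 gave 3.85 peaks per Mb against 1.09 over its list, and 5.94% of windows held at least 5. For replicate 2 the density was 1.54 against 0.603, and 16.1% of windows held at least 2.

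Most Hoxa13 peaks of the window lay in the outer part of its upstream stretch. Distances are given from the position 112.64 Mb on chromosome 11, which is rounded to 10 kb. At E11.5, 60 of the 92 peaks lay in that outer part, more than 570 kb upstream, 29 lay between there and Sox9, and 3 lay beyond it. The same counts were 10, 3 and 1 at E11.0 and 15, 11 and 0 at E12.5. The outer part and the stretch between it and Sox9 are each 570 kb long. The outer part ends at the window's lower edge, and the extent of the desert was not determined. In each Hoxa13 list only 1 peak was centred within 100 kb of Sox9, and it was the same site, 52.6 kb upstream.

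Every Hoxa13 list had a long stretch without a peak around Sox9. At E11.5 no Hoxa13 peak lay from 112587681 to 112746855, a gap of 159.2 kb that was also the longest in the window. Of all gaps between neighbouring E11.5 peaks, 0.422% were at least as long. At E11.0 the gap around the gene was 173.2 kb (5.68% of gaps at least as long), and at E12.5 it was 288.3 kb (2.42%). A fixed position falls more often into a long gap than a short one, so the share of the length between peaks is the closer background. Gaps at least as long as the one at Sox9 held 5.93% of that length at E11.5, 34.6% at E11.0 and 18.9% at E12.5. The longest E11.0 gap lay farther upstream, from 112256744 to 112587281, and spanned 330.5 kb (1.51% of gaps, 15.9% of the length). At E12.5 the gap at Sox9 ran past the upper edge of the window, to 112875841. The longest gap with E12.5 peaks of the window on both sides was 116.6 kb, from 111546784 to 111663419, near the lower edge. Gaps at least that long were 13.3% of E12.5 gaps and held 51.0% of the length.

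The richest 100 kb bin of the window was the same at both later stages. The bin from 112000001 to 112100000, 640 to 540 kb upstream, held 15 E11.5 peaks and 7 E12.5 peaks. Over the genome, 2.51% of bins held at least 15 E11.5 peaks and 1.63% at least 7 E12.5 peaks, and the medians per bin were 5 and 1. At E11.0 the fullest bin was the first of the window, from 111500001 to 111600000, with 4 peaks (16.8% of bins held at least 4), and the later bin held 2. That first bin held 14 E11.5 peaks but only 1 E12.5 peak. These bins were picked as the fullest of 13 in the window, so their counts only describe the locus. Before the window, the bin from 111100001 to 111200000 also held 15 E11.5 peaks.

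**Figure D1:**
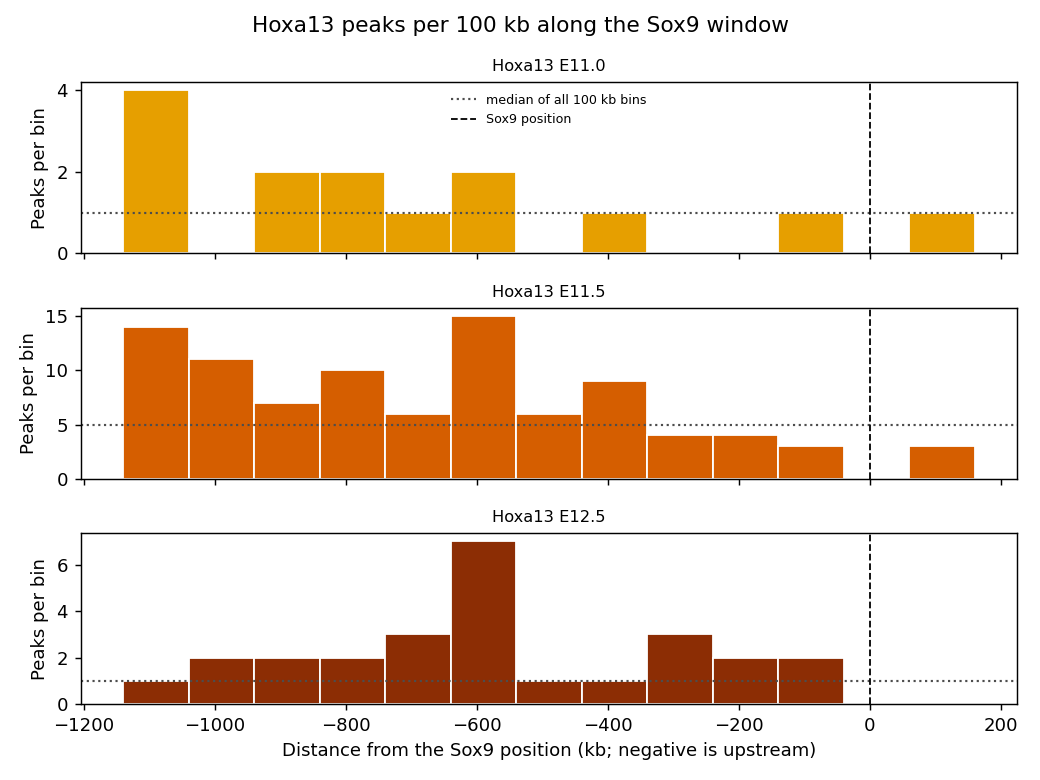
Bars give the number of Hoxa13 peaks per 100 kb bin (y axes differ by panel) against distance in kb from the Sox9 position, and the dotted line is the median bin of the genome. The bin starting 640 kb upstream is the fullest at E11.5 (15 peaks) and E12.5 (7 peaks), and the bin upstream of and across the gene is empty at all stages.

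Merging overlapping peaks of the 5 lists gave 100 sites in the Sox9 window, of which 70 were found in a single list and 63 in Hoxa13 E11.5 alone. Counted over the 92 E11.5 peaks, 69.6% met neither other stage, 7.61% met both, 16.3% met E12.5 only and 6.52% met E11.0 only. Over the whole E11.5 list these shares were 67.4%, 9.6%, 12.1% and 11.0%. A Hoxa13 peak at all 3 stages was found at 7 sites. Another 15 sites joined only the later stages, E11.5 and E12.5, and 6 joined only the earlier ones, E11.0 and E11.5. No site joined the outer stages without E11.5, a class that held 3.91% of the whole E11.0 list and 4.81% of the whole E12.5 list. Among Hoxa13 lists, 4 sites were found at E12.5 alone (15.4% of the E12.5 peaks here, against 24.5% over the list). At E11.0 alone there was 1 (7.14%, against 37.9%). The 6 sites without an E12.5 peak lay from 1117.1 kb upstream to 120.9 kb beyond Sox9, with 3 of them in the first 100 kb of the window. The 15 without an E11.0 peak lay between 976.5 and 131.4 kb upstream.

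The 7 sites of all stages stood 1093.4, 931.8, 746.2, 692.9, 614.4, 383.4 and 52.6 kb upstream of Sox9. The farthest, from 111546332 to 111546963, had widths of 334, 570 and 169 bp at E11.0, E11.5 and E12.5. It was the only one of the 7 that Hoxa11 also met. The nearest to the gene, from 112587159 to 112587680, was 212, 522 and 249 bp wide. Between them came 111708008 to 111708424, 111893557 to 111894048, 111946807 to 111947415, 112025391 to 112025820 and 112256386 to 112256856. Their E11.5 peaks were 405 to 606 bp wide with a median of 492. Of the window's 92 E11.5 peaks 21 were at least 405 bp wide, so width alone did not mark these sites. At the site nearest Sox9 the midpoints of the stages fell within 32 bp of each other, and all 3 peaks shared 212 bp.

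The widest peaks at Sox9 were mostly other sites. The widest at E11.5, 743 bp from 112036690 to 112037432, lay 602.9 kb upstream and met a 353 bp E12.5 peak, the second widest there, but none at E11.0. The next, from 112011839 to 112012540 (702 bp) and from 112259828 to 112260485 (658 bp), were found at E11.5 alone. At E12.5 the widest peak, 361 bp, was at the all-stage site 614.4 kb upstream, and the third, 345 bp from 112384921 to 112385265, lay 254.9 kb upstream and was shared with E11.5. At E11.0 the widest peak, 368 bp from 111570861 to 111571228, was shared with E11.5 only. The next, of 354 and 334 bp, belonged to all-stage sites. Read depth is unknown and these lists hold no score, so width is not a measure of occupancy.

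The Gdf5 window held 4 Hoxa13 peaks of the E11.0 list, 22 of the E11.5 list and 9 of the E12.5 list, and 1 Hoxa11 peak in each replicate. Per Mb these were 8.89, 48.9 and 20 Hoxa13 peaks, which gave ratios of 0.47, 0.903 and 1.2 to the lists. With the widest 44699 peaks of each list the E11.5 ratio was 1.05, on the other side of 1. Among 5851 genome windows of 450 kb, 75.9% held at least as many E11.0 peaks, 53.5% at least as many E11.5 peaks and 35.2% at least as many E12.5 peaks. For Hoxa11, 29.5% of such windows held at least 1 peak of replicate 1 and 17.2% at least 1 of replicate 2.

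The Gdf5 window held 1 site that was found in all 5 lists. It spanned 155688504 to 155689324 on chromosome 2. The Hoxa13 peak there was 489 bp wide in the E11.0 list, 821 bp in the E11.5 list and 680 bp in the E12.5 list, and Hoxa11 peaks were 579 bp in replicate 1 and 540 in replicate 2. It was the widest Hoxa13 peak of the window at each stage. Within the lists it ranked 1682 of 50890 at E11.0, 929 of 143460 at E11.5 and 124 of 44699 at E12.5 by width. All 5 peaks shared 455 bp, from 155688801 to 155689255, and the Hoxa11 summit that the authors gave in replicate 2, at 155689158, lay inside that stretch. In replicate 2 the Hoxa11 peak ranked 200 of 1647 by width and 495 by the authors' score. Its fold enrichment was 4.11 against a list median of 3.9, and its −log10 q was 10.5 against a median of 7.1. Of the 1023 Hoxa11 sites seen in both replicates, 27.1% likewise met Hoxa13 at every stage, so this combination was not rare.

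Of 23 Gdf5 sites, 4 had Hoxa13 at all 3 stages, and these held all 4 of the E11.0 peaks. Besides the site of 5 lists they were 155756583 to 155756971, 67.9 kb farther along, and a close pair at 155914726 to 155915088 and 155918302 to 155918700, 226.0 and 229.6 kb farther. Their widths at E11.0, E11.5 and E12.5 were 294, 344 and 307 bp at the first, 282, 363 and 117 bp at the second, and 347, 399 and 181 bp at the third. A further 4 sites joined E11.5 and E12.5, at 155596412 to 155596718, 155698822 to 155699104, 155971552 to 155971936 and 155990551 to 155990897. The remaining 15 sites were found in a single list, 14 of them at E11.5. One of these, from 155974963 to 155975668, was the second widest E11.5 peak of the window at 706 bp. The third, 412 bp from 155979644 to 155980055, was also at E11.5 alone. Between 155756972 and 155914887 E12.5 had no peak for 157.9 kb, the longest gap of that list in the window. Of all gaps between E12.5 peaks 8.13% were at least as long, and these held 39.0% of the length between peaks.

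**Figure D2:**
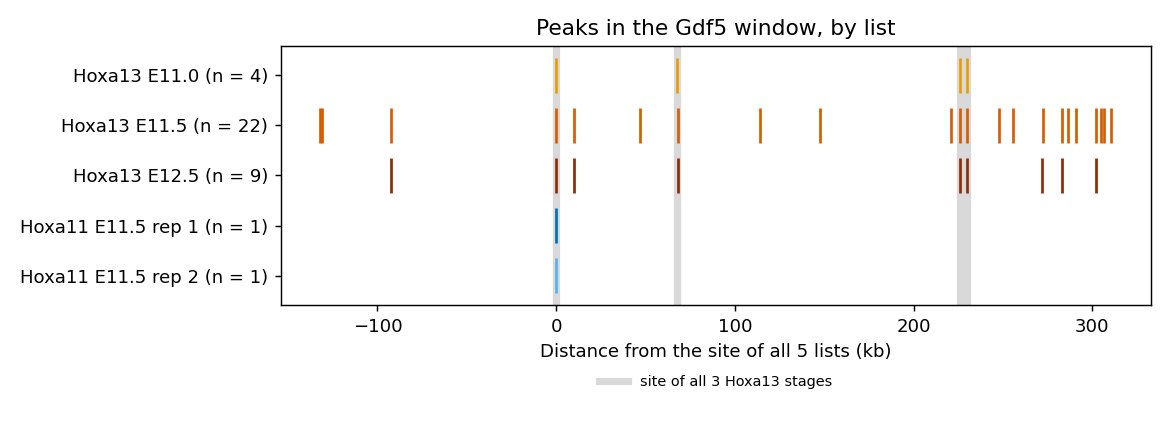
Each tick is the midpoint of 1 peak in the Gdf5 window, by list, against its distance in kb from the site found in all 5 lists. Grey bands mark the 4 sites with Hoxa13 at all 3 stages, which hold all 4 E11.0 peaks; the site at 0 is the only one with Hoxa11.

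Early Hoxa13 peaks at both loci were mostly found again at E11.5. At Sox9, 13 of the 14 E11.0 peaks met an E11.5 peak (92.9%, 95% Clopper-Pearson interval 66.1 to 99.8), against 58.1% over the whole E11.0 list. All 4 at Gdf5 did (100%, 39.8 to 100). The Sox9 interval lay above the list's share, whereas that of Gdf5 included it. With the widest 44699 peaks of each list the Sox9 share was 61.5% (8 of 13, interval 31.6 to 86.1) against 36.1% over the list, so the interval then included the list's share. The single E11.0 peak at Sox9 without an E11.5 partner lay from 111803817 to 111804021 and was 205 bp wide. Under 50% reciprocal overlap the Sox9 share was 71.4%, and the list's share under that rule is not given here.

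At Sox9 fewer of the E11.0 peaks had an E12.5 partner. There 7 of 14 did (50%, 23.0 to 77.0) and at Gdf5 4 of 4 (100%, 39.8 to 100), against 30.7% over the list. The Sox9 interval included the list's share and the Gdf5 interval lay above it, on 4 peaks. Under 50% reciprocal overlap the Gdf5 share was 75%, and the list's share under that rule is not given here. From the side of E12.5, 7 of 26 Sox9 peaks (26.9%, 11.6 to 47.8) and 4 of 9 Gdf5 peaks (44.4%, 13.7 to 78.8) met E11.0, against 35.6%. Both intervals included the list's share.

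Late Hoxa13 peaks at both loci mostly had an E11.5 partner. Of the E12.5 peaks, 22 of 26 at Sox9 (84.6%, 65.1 to 95.6) and 8 of 9 at Gdf5 (88.9%, 51.8 to 99.7) met E11.5, against 70.7%, which both intervals included. The 4 E12.5 peaks at Sox9 that did not started at 111763358, 112086125, 112393646 and 112455016. The one at Gdf5, from 155960404 to 155960518, was 115 bp wide and lay within 500 bp of an E11.5 peak.

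As over the whole list, most E11.5 peaks at both loci had no partner at another stage, 64 of 92 at Sox9 (69.6%) and 14 of 22 at Gdf5 (63.6%), against 67.4%. At Sox9 13 of 92 met E11.0 (14.1%, 7.74 to 23.0, against 20.5% of the list) and 22 met E12.5 (23.9%, 15.6 to 33.9, against 21.7%). At Gdf5 4 of 22 met E11.0 (18.2%, 5.19 to 40.3) and 8 met E12.5 (36.4%, 17.2 to 59.3). All 4 intervals included the list's share. Both other stages were met by 7 E11.5 peaks at Sox9 (7.61%) and 4 at Gdf5 (18.2%), against 9.6% of the list. For the E11.0 list this share was 50% at Sox9 and 100% at Gdf5 against 26.8%, and for E12.5 it was 26.9% and 44.4% against 30.8%. The intervals cover counting error over peaks only, since each stage had 1 library.

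**Figure D3:**
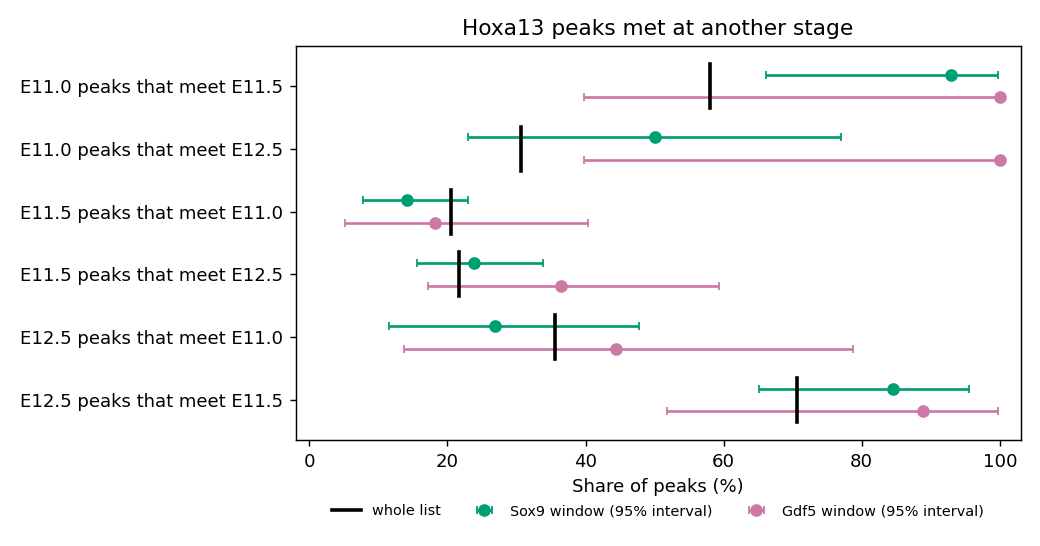
Points give the share of Hoxa13 peaks (%) in each window that meet a peak of another stage, with exact 95% binomial intervals, and black bars give the share over the whole list. The E11.0 peaks of the Sox9 window that meet E11.5 (92.9%) and those of the Gdf5 window that meet E12.5 (100%) have intervals clear of the bar, and the other intervals contain it.

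At E11.5, peaks that met another stage had a larger median width than the others in both windows. Unshared peaks were few at E12.5 (4 at Sox9, 1 at Gdf5) and at E11.0 (1 at Sox9, 0 at Gdf5). In the Sox9 window the median E11.5 width was 403 bp for 28 peaks that met another stage and 299 bp for 64 that did not, and the ranges, 206 to 743 and 203 to 702 bp, overlapped almost entirely. In the Gdf5 window the medians were 345 bp for 8 shared peaks and 245.5 bp for 14 unshared ones. The whole list showed the same order, 341 against 267 bp. The order did not hold in each subclass at Sox9. The 6 E11.5 peaks that met E11.0 only had a median of 276.5 bp, below the 299 bp of unshared peaks. The 15 that met E12.5 only had 335 bp and the 7 that met both 492 bp. Among E12.5 peaks at Sox9, those that met E11.5 only had a median of 151 bp and the unshared ones 153 bp. The part of width in the shares above was not tested. E12.5 peaks were narrow, with medians of 166.5 bp at Sox9 and 225 bp at Gdf5, against 154 bp over the list. E11.0 peaks had medians of 273.5 and 320.5 bp, against 245 bp. Of the 22 E12.5 peaks at Sox9 that met E11.5, 17 lay wholly inside the E11.5 peak (77.3%, against 85.3% over the list), with a median of 39.5 bp between midpoints. At Gdf5 4 of 8 did (50%). Of the 13 E11.0 peaks, 9 lay inside (69.2%, against 48.2%), with a median of 42.5 bp, and at Gdf5 3 of 4 (75%).

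**Figure D4:**
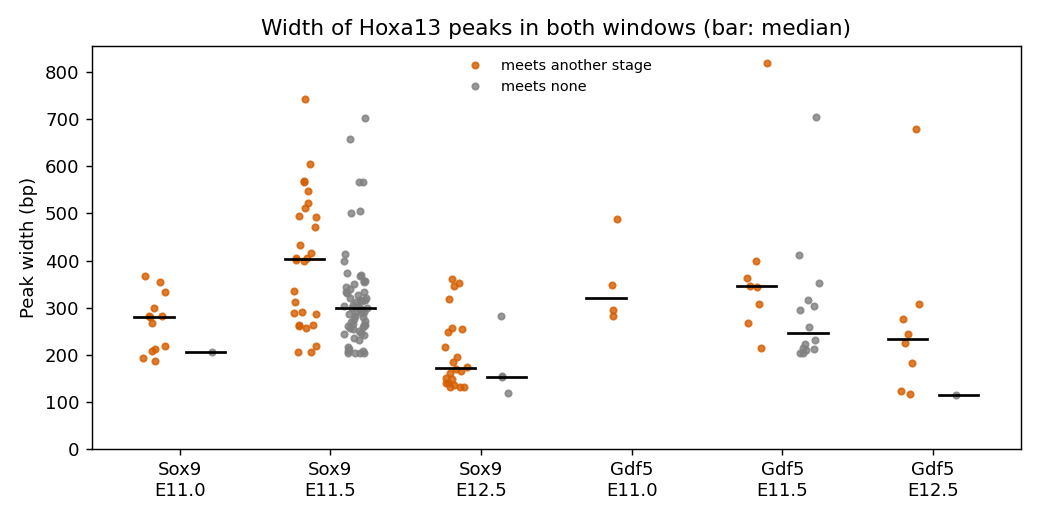
Each point is the width in bp of 1 Hoxa13 peak, by window and stage; orange points meet a peak of another stage, grey points meet none, and bars are medians. At E11.5 the median of shared peaks is 403 bp at Sox9 and 345 bp at Gdf5, above the 299 and 245.5 bp of unshared ones, with overlapping ranges.

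Over the whole series, 1023 of the 3503 Hoxa11 sites were seen in both replicates. Hoxa11 was found at 6 sites of the Sox9 window, and 1 of them was seen in both. That site, from 111742479 to 111743040, lay 897.2 kb upstream of Sox9 and met no Hoxa13 peak at any stage. Its peak was 562 bp wide in replicate 1 and 365 bp in replicate 2, where the authors gave a fold enrichment of 4.84, a −log10 q of 13.1 and a score of rank 353 among 1647. The nearest Hoxa13 peaks lay 3510 bp away at E11.5, 20317 bp at E12.5 and 25752 bp at E11.0. Among the 1023 Hoxa11 sites of both replicates, 16.1% met no Hoxa13 peak. Both windows together thus held 2 replicated Hoxa11 sites, that of Gdf5 with Hoxa13 at every stage and that of Sox9 with none.

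The other Hoxa11 sites at Sox9 rested on 1 replicate each. In replicate 2 the peak from 111823116 to 111823359, 816.8 kb upstream, had a fold enrichment of 3.68 and met Hoxa13 peaks of the later stages, E11.5 and E12.5, and none of E11.0. In replicate 1 a 206 bp peak met the all-stage Hoxa13 site 1093.4 kb upstream. A 342 bp peak, from 112273864 to 112274205, met an E11.5 Hoxa13 peak of 343 bp that starts 3 bp before it, and no other list. These 3 were the Hoxa11 sites at Sox9 that coincided with Hoxa13. The last of them was found only in replicate 1 and Hoxa13 E11.5, whose libraries had a common input. The part of that input was not tested.

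Another pair of replicate 1 peaks met no Hoxa13 peak. The 199 bp peak from 112007702 to 112007900 lay 219 bp from an E11.5 Hoxa13 peak. The 218 bp peak from 112630131 to 112630348 was the peak nearest to Sox9 in any list, 9.8 kb upstream of a position rounded to 10 kb. It lay inside the stretch without Hoxa13 and 42450 bp from the nearest E11.5 peak. By width both peaks of the pair ranked low in their list, at percentiles 2.13 and 17.6. Neither was seen in replicate 2, which was met by 35.8% of all replicate 1 peaks.

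Across both windows, 4 of 7 Hoxa11 sites met Hoxa13 at E11.5, 3 met it at E12.5 and 2 at E11.0. Over all 3503 Hoxa11 sites of either replicate these shares were 68.5%, 47.5% and 25.1%. With 7 sites, no difference from these shares could be resolved. The Hoxa11 libraries were all of E11.5, the single stage at which both proteins were mapped.

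The window edges fell between peaks of the E11.5 list at both loci. Around the lower Sox9 edge the nearest peaks were an E11.5 peak 8.58 kb outside and another 16.4 kb inside. Around the upper edge an E11.5 peak lay 24.3 kb inside and a Hoxa11 replicate 1 peak 75.5 kb outside. At Gdf5 the nearest were E11.5 peaks 11.7 kb outside and 6.68 kb inside at the lower edge, and 0.805 kb inside and 3.18 kb outside at the upper edge.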

How the data were processed

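Chromatin of limb tissue was precipitated and sequenced, and the authors deposited 1 peak list per library in build mm9. CASAVA 1.4, Bowtie2 2.2.2 and MACS2 2.1.0 were used per the submitters' processing notes; their roles, thresholds and use of input are not given in the sources used here. From the files' columns, 4 deposited lists hold chromosome, start and end, and that of Hoxa11 replicate 2 adds a deposited score, a fold enrichment, which is a ratio,, −log10 p and −log10 q values and a summit. The authors' values served only to describe and rank peaks in that list.

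Overlap meant at least 1 shared bp. Overlapping peaks were merged into sites. Genome windows and bins were tiled from the start of chromosomes 1 to 19 and X up to the last peak, and list densities used the same span. Intervals are exact Clopper-Pearson. Positions are 1-based. Functions were tested on simulated data, with Python 3.11.15, pandas 2.3.3, scipy 1.17.1 and bedtools 2.31.1. Read depth is unknown, each Hoxa13 stage has 1 library, and Hoxa11 replicates may be technical, so no p-value was computed. Named sites were those with Hoxa11, those of all 3 Hoxa13 stages, the 3 widest Hoxa13 peaks per list and window, the nearest to Sox9, the fullest 100 kb bin, the longest gaps and the window edges. Members and lists were chosen with earlier results of these data known. The planned gene list and motif search needed an mm9 annotation or genome and were not run, and Sox9 and Gdf5 had no match in the promoter table used. Input libraries were not analysed here.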

Additional observations from a re-analysis of the deposited data

How the results depend on the processing

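Of 89 recomputed values of 49 results, 72 stayed within their interval or within 1.5 times the reported count. The Gdf5 density ratio at E11.5 crossed 1, from 0.903 to 1.05 with the widest 44699 peaks of each list. With these lists, E11.5 counts were 37 at Sox9 and 8 at Gdf5, and the Sox9 density ratio at E11.5 was 1.69. At Sox9 E11.5 was then met by 61.5% of the earliest and 57.7% of the latest peaks, against 36.1% and 43.2% over the shortened lists. Of the E11.5 peaks at Sox9, 40.5% met E12.5, against 42.0% over the shortened list. At Gdf5, E11.5 peaks met E11.0 in 50% of cases, against 35.7%, and E12.5 in 62.5%, against 42.0%. The cause was not tested; each list but that of E12.5 then holds fewer peaks. Under 50% reciprocal overlap 6.52% of E11.5 peaks at Sox9 met E12.5, 23.1% of E12.5 peaks met E11.5, and sites of all stages fell to 1 at Sox9 and 2 at Gdf5. A peak less than 50% as wide as its partner cannot meet this rule. Median widths at Sox9 were 304.5 bp at E11.5 and 166.5 bp at E12.5. The part of width in this fall was not tested, and whole-list shares under the rule are not given here. When peaks within 500 bp counted as meeting, an alternative chosen after seeing the data, 100% of E12.5 peaks at Gdf5 met E11.5. Sox9 Hoxa11 sites numbered 2 without replicate 1, 5 without replicate 2 and 1 when both were required. Depth is unknown, so a missing peak does not show that a site was unbound.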

Other observations

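Just outside the rule, 235.8 kb beyond Sox9, a site from 112875532 to 112876155 on chromosome 11 was found in 4 of the 5 lists. It was chosen after its values were seen. Hoxa11 peaks there were 601 bp wide in replicate 1 and 427 bp in replicate 2, where the authors' fold enrichment was 5.36, the −log10 q 30.6 and the score rank 68 of 1647. Hoxa13 peaks were 425 bp wide at E11.5 and 118 bp at E12.5, and the first E11.0 peak past the window lay at 113089016. By the authors' score this Hoxa11 peak ranked above each replicate 2 peak in the Sox9 and Gdf5 windows, the best of which ranked 353.

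Hoxa13 peaks thinned out past Sox9. In the 1 Mb after the window there were 5 peaks in the E11.0 list, 18 in the E11.5 list and 6 in the E12.5 list. The 1 Mb before the window held 25, 98 and 33. The window itself lay between these at each stage, with 10.8, 70.8 and 20 peaks per Mb. At E11.5 a neighbouring peak of the same list within 10 kb was found for 77.2% of Sox9 and 72.7% of Gdf5 peaks, against 73.4% over the list. At E11.0 this held for 2 of 14 Sox9 peaks (14.3%) and 2 of 4 Gdf5 peaks (50%), against 46.2% over the list. At E12.5 the shares were 38.5% at Sox9 and 44.4% at Gdf5, against 40.5%.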
